A study of Mus musculus with 8 samples.

Results

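Type I interferon stimulated genes are the antiviral and regulatory genes that cells switch on when interferon alpha or beta binds its receptor. The 35 members described here were chosen by name as a list of such genes, and all 35 were found among the 22878 gene symbols of the tables and were among the 13619 genes tested. Polyadenylated RNA was sequenced from 4 populations of bone marrow progenitors of C57BL/6 mice (an inbred wild-type strain, with no treatment or transgene named), with 2 libraries per population. Common lymphoid progenitors (CLP) were sorted as live lineage-negative cells positive for CD127, Flt-3, Sca1 and c-Kit and negative for integrin α4β7. Common helper-like innate lymphoid progenitors (ChILP) were live lineage-negative cells positive for CD127, c-Kit and integrin α4β7 and negative for Flt-3 and T1/ST2. The other groups divided the ChILP gate into PD-1+ CCR6- cells, labelled as the source of innate lymphoid cells without the lymphoid tissue inducer (LTi) type, and PD-1- CCR6+ cells, labelled as the source of LTi cells. Lineage depletion was used to enrich CLP and ChILP ("depleted libraries" below), and magnetic capture of integrin α4β7 bearing cells to enrich PD-1+ and CCR6+ cells ("captured libraries"). Age, sex and the number of animals behind a library are not given in the labels, and every p-value therefore reflects only the variation among these libraries, which may be technical.

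Interferon alpha and beta signal through a receptor of the chains IFNAR1 and IFNAR2, the kinases JAK1 and TYK2, and a transcription factor complex that holds STAT2 and IRF9. This complex binds a short DNA motif, the interferon-stimulated response element, in the promoters of its targets. Many of these genes also keep a low basal level without infection, and several, such as Bst2 and Irf7, are high in plasmacytoid dendritic cells, a cell type that shares marrow precursors with lymphocytes.

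Promoters are shown because genes of this kind are known for sharing this control element. RefSeq promoter windows (build GRCm38.p6, 250 bases before to 50 after a start) were matched by symbol for 26 of the 35 members; those not matched were Oas2, Mx1, Mx2, Dhx58, Rtp4, Usp18, Parp9, Parp14 and Zbp1. The core of this element, searched as GAAA, any 2 bases and GAAA again on both strands (TTTC, any 2 bases and TTTC on the other) with overlapping matches counted, was present in 12 of the 26, against 3.99% of the 27025 symbols with a window. Below are the 170 bases before the start of 5 members that hold it, printed 5′ to 3′ on the strand of the gene, with the matches in capitals. Isg15, Rsad2 and Ifit3 are members with large differences between libraries, Oas1a has its matches closest to the start among these 5, and Bst2 had the smallest difference of these 5.
Isg15 (chr4:156200819-156200988, minus strand): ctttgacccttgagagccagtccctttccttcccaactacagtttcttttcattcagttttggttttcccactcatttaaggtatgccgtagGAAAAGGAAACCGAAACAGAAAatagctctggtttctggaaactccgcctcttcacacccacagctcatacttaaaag
Rsad2 (chr12:26456453-26456622, minus strand): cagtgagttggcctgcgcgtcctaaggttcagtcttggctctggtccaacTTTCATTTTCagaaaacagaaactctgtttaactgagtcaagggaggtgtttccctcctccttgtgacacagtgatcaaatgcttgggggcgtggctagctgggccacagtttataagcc
Ifit3 (chr19:34583359-34583528, plus strand): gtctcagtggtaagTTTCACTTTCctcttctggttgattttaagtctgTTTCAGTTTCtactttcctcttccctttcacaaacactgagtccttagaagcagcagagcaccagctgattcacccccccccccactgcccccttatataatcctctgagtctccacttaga
Oas1a (chr5:120907526-120907695, minus strand): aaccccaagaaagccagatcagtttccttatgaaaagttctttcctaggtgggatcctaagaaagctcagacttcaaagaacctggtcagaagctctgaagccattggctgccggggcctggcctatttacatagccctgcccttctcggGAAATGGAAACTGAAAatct
Bst2 (chr8:71537473-71537642, minus strand): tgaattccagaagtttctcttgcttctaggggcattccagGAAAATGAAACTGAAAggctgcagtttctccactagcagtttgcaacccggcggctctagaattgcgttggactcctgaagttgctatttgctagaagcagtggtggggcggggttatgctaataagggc
Isg15 holds 3 overlapping matches, the first of them starting 78 bases before the start site, and Bst2 holds 2 overlapping ones. The matches in Rsad2 and Ifit3 lie on the opposite strand to the gene. Matches were also present in Ifit1, Oas3, Stat2, Ifih1, Ddx58, Ifitm3 and Eif2ak2, those of the last 4 after the start site. The windows of 14 members, Irf7 and Oasl2 among them, do not hold these letters. A match is a description of the sequence and not a measured binding site.

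Reads counted to 1 transcript per gene numbered 7685188 to 13997897 per library. The sort genes followed the labels in most libraries. Flt3 reached 92.1 and 157 RPKM (reads scaled by transcript length and library depth) in CLP against 5.10 to 10.3 in the remaining libraries. Pdcd1, which encodes PD-1, measured 0.823 and 0.319 RPKM in CLP, 70.9 and 92.85 in ChILP, 181 and 36.3 in PD-1+ libraries, then 0 and 1.102 in CCR6+ libraries. PD-1+ replicate 2 thus lay below both libraries of the undivided ChILP gate. PD-1+ replicate 2 also stood apart from PD-1+ replicate 1. It held Ccr6 at 8.11 RPKM against 0, beside 3.84 and 8.21 in ChILP and 84.2 and 23.6 in CCR6+ libraries. Over all tested genes the log2 levels of PD-1+ replicate 2 correlated more closely with CCR6+ replicate 2 (r = 0.9301 across genes, which are not independent replicates) than with PD-1+ replicate 1 (r = 0.8697). Transcripts of mature marrow cells were far more abundant in the captured libraries. The summed level of 12 neutrophil markers was 814 to 5566 RPKM in depleted and 9821 to 20901 in captured libraries, that of 10 monocyte and macrophage markers 880.1 to 2014 and 7613 to 17297, and that of 7 erythroid markers, whose globin copies share reads, 1433 to 11519.7 and 54674 to 78671. In bulk libraries, fewer cells of a type and less RNA per cell cannot be told apart.

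The members differed mostly between the routes of enrichment. Their summed level was 1056.4 and 1128 RPKM in CLP, 1155 and 896 in ChILP, 2046 and 2763 in PD-1+ libraries, then 2892 and 3053 in CCR6+ libraries, so that every captured library lay above every depleted one. With edgeR's quasi-likelihood test and Benjamini-Hochberg adjustment over all genes, 22 of the 35 members rose in PD-1+ and CCR6+ cells against CLP and ChILP and none fell, beside 11.4% of all genes called higher and 10.5% called lower. The members' median log2 fold change was 1.06, beside -0.08 for all genes tested. With a fit of log2(RPKM + 1) in limma, 18 members rose beside 10.4% of all genes, and the median was 0.75 beside -0.30 for all genes; the calls over all genes were then 1278 higher and 3077 lower, against 1556 and 1434 with edgeR. The libraries of both routes did not overlap in 16 members, all higher in captured libraries, beside 9.05% of all genes higher and 22.5% lower without overlap. Without CLP replicate 2, 14 members rose, beside 6.72% of all genes.

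**Figure D1:**
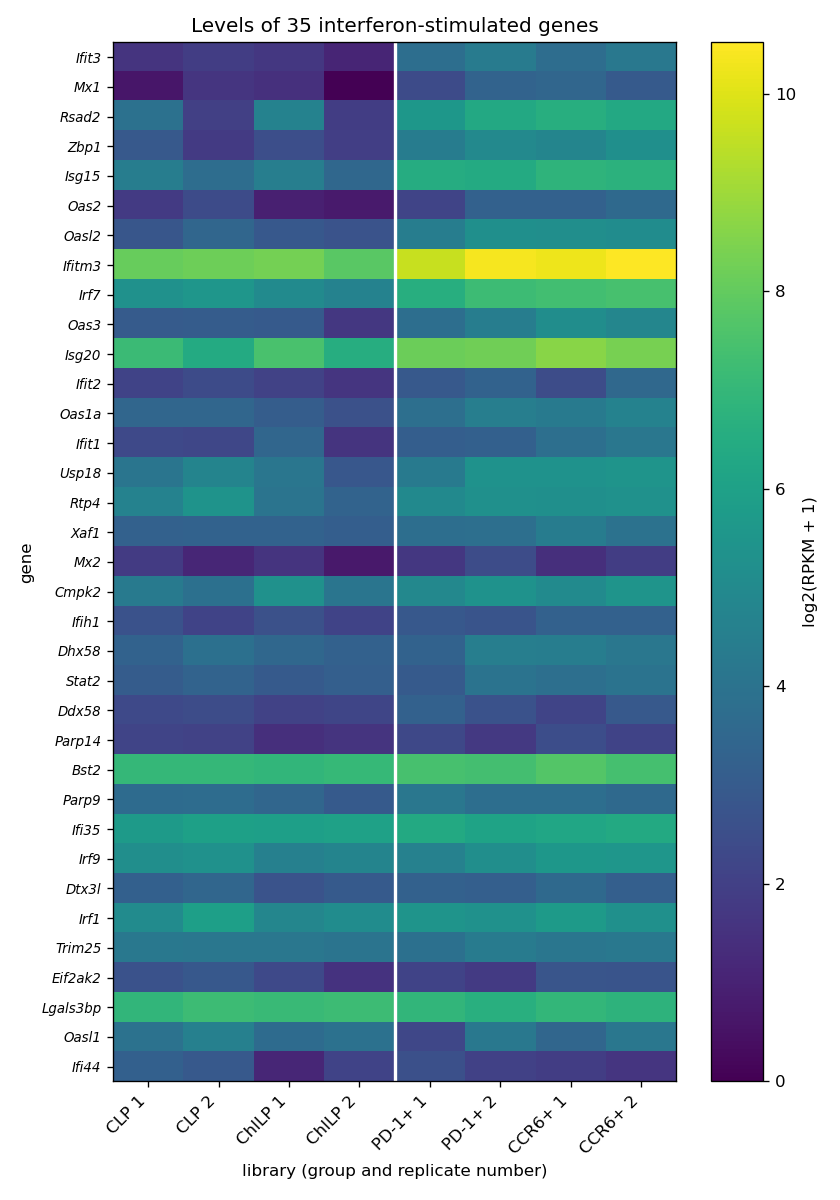
Heat map of log2(RPKM + 1) for the 35 genes (rows, ordered by the log2 fold change of PD-1+ and CCR6+ against CLP and ChILP) in the 8 libraries (columns, group and replicate number); the white line divides depleted from captured libraries. Genes of the upper rows, from Ifit3 to Oas3, are brighter on the right of the line, while those of the lowest rows are not.

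Route of enrichment and cell type cannot be told apart in this comparison, since no population was prepared in both ways. Many markers of mature cells moved with the members. With edgeR, 11.4% of all genes were called higher in captured libraries and 10.5% lower. Of the neutrophil markers 8 of 12 rose (12 of 12 at an unadjusted p under 0.05, beside 17.1% of all genes higher). So did 10 of 10 monocyte and macrophage, 7 of 7 erythroid, 4 of 4 B cell and 4 of 5 T cell markers. The 4 of 4 early myeloid markers fell. Every neutrophil, monocyte and macrophage, erythroid and early myeloid marker in the tables had reads in all 8 libraries. Of the T cell markers 3 had no read in ChILP replicate 2, 2 had none in CLP replicate 2 and 1 had none in PD-1+ replicate 1. Of the B cell markers 1 had no read in CLP replicate 2 and 1 had none in ChILP replicate 2. B cell markers summed to 23.4 to 129 RPKM in depleted and 223 to 319 in captured libraries, and T cell markers to 3.36 to 6.49 and 27.2 to 53.1. Of 9 plasmacytoid dendritic cell markers 4 rose. They summed to 268 to 1123 RPKM in depleted and 445 to 754 in captured libraries, with overlap. Of 5 conventional dendritic cell markers 2 rose, and of 4 NK cell markers 2 rose. The part of these cells in the members' levels was not tested.

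**Figure D2:**
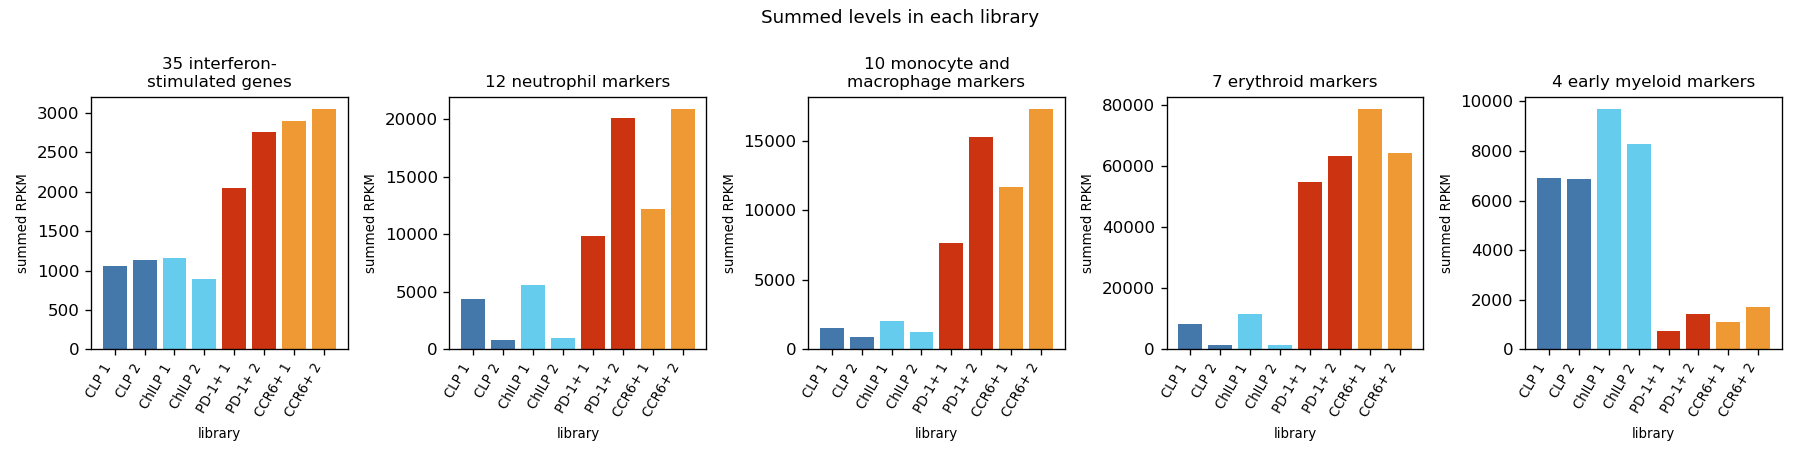
Summed RPKM (bars, linear axis from 0) in each of the 8 libraries, coloured by group, for the 35 interferon-stimulated genes and 4 marker lists. The 4 captured libraries (PD-1+ and CCR6+) are above the 4 depleted libraries in the first 4 panels and below them in the last, and PD-1+ replicate 1 is the lowest captured library in every panel.

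Within the captured libraries, PD-1+ replicate 1 had the lowest level of 20 of the 35 members, and also the lowest sum of neutrophil (9821 RPKM), monocyte and macrophage (7613) and erythroid markers (54674). In these marker sums it still lay above all 4 depleted libraries. It lay above all 4 of them in 19 members, compared with 25 for PD-1+ replicate 2, 25 for CCR6+ replicate 1 and 26 for CCR6+ replicate 2. Within the depleted libraries, ChILP replicate 2 had the lowest level of 20 members and CLP replicate 2 the highest of 19. Those libraries had the lowest neutrophil marker sums of all, 978 and 814 RPKM, and also the lowest monocyte and macrophage (1256 and 880) and erythroid sums (1569 and 1433). Shares over all genes are not given for these counts by library, so the counts describe the members only. With replicate 2 of PD-1+ and of CCR6+ both left out 14 members rose, beside 6.55% of all genes higher and 9.29% lower. With replicate 1 of CLP and of ChILP both left out 17 rose, beside 7.42% higher and 3.05% lower. Both settings were chosen after seeing the data.

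Of the 4 transcription factors of the pathway, 2 rose in captured libraries. Irf7 (NM_016850), which amplifies interferon production, measured 39.1 and 45.4 RPKM in CLP libraries, 31.8 and 24.1 in ChILP, 96.0 and 146 in PD-1+ libraries, then 161 and 176 in CCR6+ libraries. All captured libraries were above all depleted ones (log2 fold change 2.34, SE 0.20, adjusted p = 0.00115). Stat2 (NM_019963), which carries the activation domain of the complex, measured 7.38 and 9.31 RPKM in CLP libraries, 6.80 and 8.05 in ChILP, 6.86 and 14.9 in PD-1+ libraries, then 13.2 and 15.2 in CCR6+ libraries. Here PD-1+ replicate 1 was as low as the depleted libraries, and the call (log2 fold change 0.95, SE 0.28, adjusted p = 0.043) was lost under 11 of 18 alternative settings. Irf9 (NM_001159417), the DNA-binding part of the complex, did not pass at 35.9 and 39.0 RPKM in CLP, 22.6 and 26.1 in ChILP, 23.6 and 36.0 in PD-1+ libraries, then 47.0 and 45.3 in CCR6+ libraries (log2 fold change 0.58, SE 0.18, adjusted p = 0.0567). Irf1 (NM_008390), a factor best known as a target of interferon gamma, did not pass either, with 27.1 to 61.2 RPKM in depleted and 38.0 to 52.3 in captured libraries (log2 fold change 0.47, SE 0.21).

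The ubiquitin-like modifier and its protease rose, while both other members of this group did not pass. Isg15 (NM_015783), a ubiquitin-like protein attached to other proteins, measured 21.0 and 12.7 RPKM in CLP libraries, 21.7 and 10.4 in ChILP, 90.1 and 85.8 in PD-1+ libraries, then 113 and 109 in CCR6+ libraries. The routes were far apart (log2 fold change 2.85, SE 0.30, adjusted p = 0.00159), and Isg15 was called under all 18 alternatives. Usp18 (NM_011909), which removes ISG15 and dampens the receptor, measured 16.1 and 25.9 RPKM in CLP libraries, 16.3 and 6.33 in ChILP, 19.1 and 40.0 in PD-1+ libraries, then 40.2 and 43.1 in CCR6+ libraries. PD-1+ replicate 1 lay below CLP replicate 2, and the call (log2 fold change 1.48, SE 0.37, adjusted p = 0.0253) was lost under 6 of 18 alternatives. Trim25 (NM_009546), a ubiquitin ligase that acts on the RNA sensor RIG-I, was level at 13.9 to 19.7 RPKM over all 8 libraries (log2 fold change 0.29, SE 0.17). Lgals3bp (NM_011150), a secreted galectin-binding protein, stood at 120 to 149 RPKM in depleted and 97.3 to 124 in captured libraries (log2 fold change -0.03, SE 0.12).

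**Figure D3:**
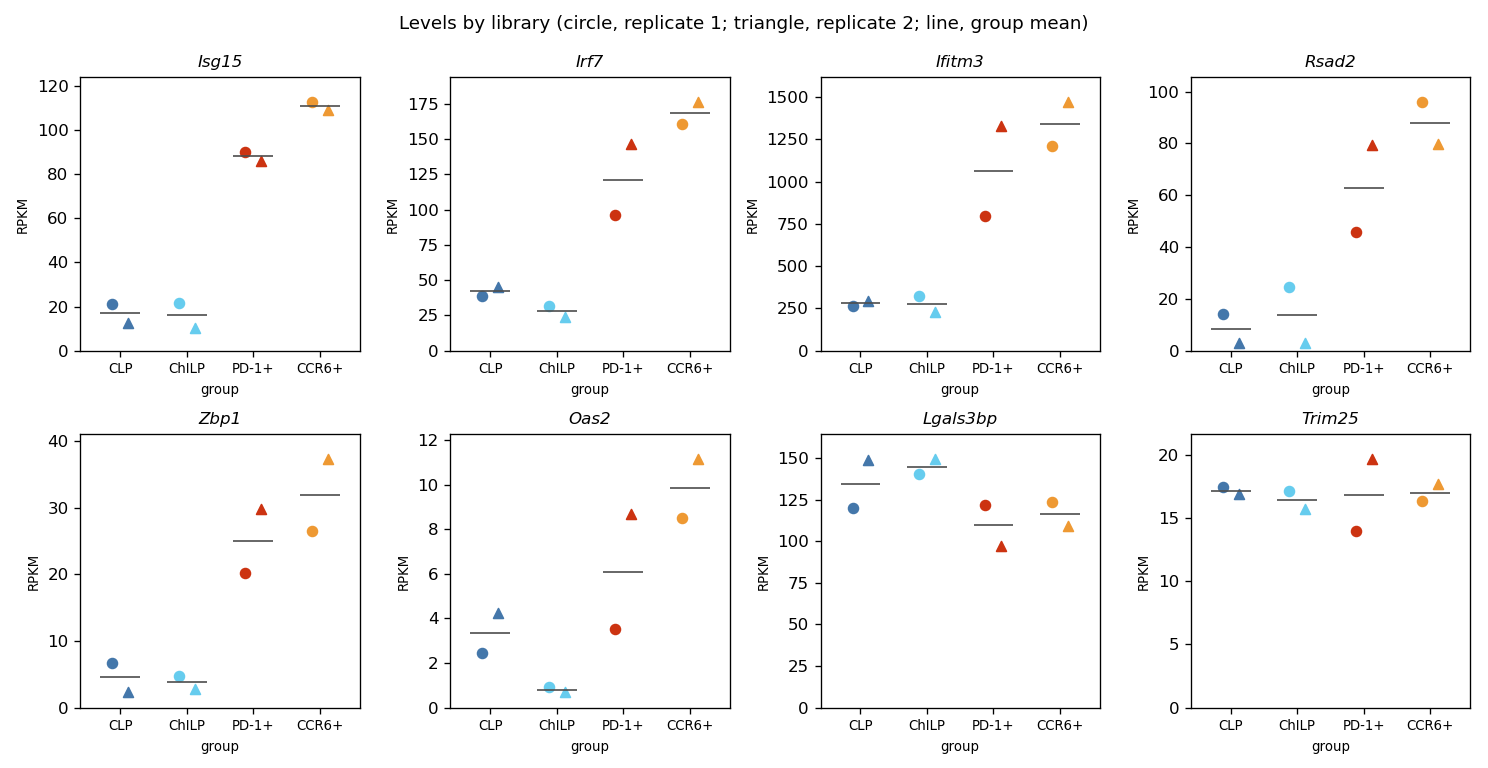
RPKM (linear axes from 0) of 8 of the genes in each library by group; circles are replicate 1, triangles replicate 2 and lines the group means. Isg15, Irf7, Ifitm3, Rsad2 and Zbp1 are higher in all 4 captured libraries, Oas2 overlaps in PD-1+ replicate 1, and Lgals3bp and Trim25 show no rise.

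Of 5 nucleic acid sensors, 3 rose. Zbp1 (NM_021394), which binds Z-form nucleic acid and can trigger cell death, measured 6.73 and 2.41 RPKM in CLP libraries, 4.74 and 2.87 in ChILP, 20.2 and 29.7 in PD-1+ libraries, then 26.6 and 37.3 in CCR6+ libraries. Its log2 fold change was 3.03 (SE 0.40, adjusted p = 0.00268), with no overlap between routes. Ifih1 (NM_027835), the RNA sensor MDA5, rose from 3.37 to 5.21 RPKM in depleted to 5.73 to 8.54 in captured libraries (log2 fold change 1.03, SE 0.24, adjusted p = 0.0205), a call lost under 7 of 18 alternatives. Ddx58 (NM_172689), the RNA sensor RIG-I, overlapped between routes, with CCR6+ replicate 1 at 3.42 RPKM within the range of the depleted libraries (3.23 to 4.49). The Ddx58 call (log2 fold change 0.92, SE 0.28, adjusted p = 0.0478) was lost under 11 of 18 alternatives. Dhx58 (NM_030150), the related LGP2, and Eif2ak2 (NM_011163), the double-stranded RNA kinase PKR, did not pass, with 8.62 to 13.8 and 1.90 to 6.43 RPKM in depleted and 8.98 to 21.7 and 2.46 to 5.82 in captured libraries.

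The oligoadenylate synthetase family, which makes the second messenger that activates RNase L, had 4 of 5 members higher in captured libraries and the highest median of any of the member groups (log2 fold change 2.28). Oas3 (NM_145226) measured 7.09 and 7.44 RPKM in CLP libraries, 6.87 and 2.29 in ChILP, 13.1 and 21.1 in PD-1+ libraries, then 34.6 and 27.2 in CCR6+ libraries, without overlap (log2 fold change 2.28, SE 0.35, adjusted p = 0.00451). Oas2 (NM_145227), its neighbour on chromosome 5, measured 2.44 and 4.23 RPKM in CLP libraries, 0.907 and 0.704 in ChILP, 3.51 and 8.66 in PD-1+ libraries, then 8.52 and 11.2 in CCR6+ libraries. It rose as well (log2 fold change 2.53, SE 0.38, adjusted p = 0.004), though PD-1+ replicate 1 lay below CLP replicate 2. Oas1a (NM_145211), whose reads cannot be fully told from those of its close copies such as Oas1g, rose from 5.18 to 10.2 RPKM to 13.5 to 24.3 (log2 fold change 1.56, SE 0.27, adjusted p = 0.00611). The oligoadenylate synthetase-like neighbours went different ways: Oasl2 (NM_011854) rose from 5.39 to 10.02 to 21.2 to 37.3 RPKM (log2 fold change 2.51, SE 0.26, adjusted p = 0.00149), whereas Oasl1 (NM_145209), known to restrain translation of Irf7, stood at 11.8 to 22.7 RPKM in depleted and 3.73 to 17.5 in captured libraries (log2 fold change -0.07, SE 0.46). Whether Oasl1 and Oasl2 differ from each other was not tested.

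Among 8 antiviral effectors 5 rose. Ifit3 (NM_010501), of a family that binds viral RNA, had the largest log2 fold change of the 35 members at 3.24 (SE 0.35, adjusted p = 0.00173); its levels were 1.97 and 2.80 RPKM in CLP, 2.30 and 1.14 in ChILP, 13.1 and 19.7 in PD-1+ libraries, then 12.5 and 17.6 in CCR6+ libraries. Its reads may be shared with a near-identical copy. Ifit2 (NM_008332), its neighbour on chromosome 19, rose from 2.05 to 4.29 RPKM to 4.38 to 10.8 without overlap (log2 fold change 1.57, SE 0.35, adjusted p = 0.0167). Ifit1 (NM_008331) just missed the threshold (log2 fold change 1.49, SE 0.46, adjusted p = 0.0523), with ChILP replicate 1 at 9.96 RPKM above both PD-1+ libraries at 7.95 and 8.31.

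Rsad2 (NM_021384), which encodes viperin, an enzyme that makes a chain-terminating nucleotide varied widely between replicates. It measured 14.1 and 2.94 RPKM in CLP libraries, 24.5 and 2.77 in ChILP, 45.9 and 79.5 in PD-1+ libraries, then 96.0 and 79.7 in CCR6+ libraries (log2 fold change 3.05, SE 0.73, adjusted p = 0.0221). In both depleted groups replicate 1 was several-fold above replicate 2. The Rsad2 call was lost under 6 of 18 alternatives, over which its log2 fold change ran from 2.63 to 5.02. With 1 library left out in turn, the log2 fold change ran from 2.63 without ChILP replicate 2 to 4.20 without ChILP replicate 1. Of the 12 neutrophil markers, 10 were also higher in replicate 1 than in replicate 2 of both CLP and ChILP, while Cxcr2 and Csf3r were not. Sums of monocyte and macrophage, erythroid and early myeloid markers were higher in replicate 1 of both groups too. Erythroid ones were at 8424 against 1433 RPKM in CLP and 11519.7 against 1569 in ChILP. Sums of plasmacytoid dendritic, conventional dendritic and NK cell markers were lower in replicate 1 of both groups. The part of RNA of any of these cells in Rsad2 was not tested. Cmpk2 (NM_020557), a nucleotide kinase and the neighbour of Rsad2 on chromosome 12, measured 18.7 and 13.8 RPKM in CLP, 39.1 and 16.2 in ChILP, 29.4 and 39.8 in PD-1+ libraries, then 32.0 and 43.1 in CCR6+ libraries. It rose (log2 fold change 1.04, SE 0.30, adjusted p = 0.0423) but overlapped between routes and was lost under 10 of 18 alternatives. Isg20 (NM_020583), an exonuclease, was already high at 84.2 to 182 RPKM in depleted libraries and reached 284 to 405 in captured ones (log2 fold change 1.66, SE 0.27, adjusted p = 0.0055).

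The Mx GTPases were low and did not pass. Mx1 (NM_010846), of which C57BL/6 mice carry a defective allele, measured 0.536 and 2.11 RPKM in CLP libraries, 1.73 and 0 in ChILP, 4.29 and 9.18 in PD-1+ libraries, then 10.02 and 6.96 in CCR6+ libraries. Its libraries did not overlap between routes, but the spread was wide (log2 fold change 3.12, SE 1.02, adjusted p = 0.0644). Mx1 passed without ChILP replicate 1 (log2 fold change 7.09) and without ChILP replicate 2 (2.62), and the former value depends on the prior count because the remaining ChILP library had no read. Mx2 (NR_003508) stood at 0.642 to 4.40 RPKM over all 8 libraries.

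Each of the 3 membrane restriction factors rose. Ifitm3 (NM_025378), which blocks entry of viruses from endosomes, was the most abundant member, at 265 and 296 RPKM in CLP, 321 and 226 in ChILP, 798 and 1330.5 in PD-1+ libraries, then 1210.0 and 1470.0 in CCR6+ libraries (log2 fold change 2.39, SE 0.22, adjusted p = 0.00138). Bst2 (NM_198095), which encodes tetherin and marks plasmacytoid dendritic cells, was nearly constant within each route at 121 to 131 RPKM in depleted and 165 to 206 in captured libraries (log2 fold change 0.78, SE 0.13, adjusted p = 0.00542). Rtp4 (NM_023386), a receptor chaperone, measured 24.4 and 40.9 RPKM in CLP libraries, 15.7 and 9.06 in ChILP, 30.4 and 38.3 in PD-1+ libraries, then 36.5 and 39.3 in CCR6+ libraries. The Rtp4 rise (log2 fold change 1.13, SE 0.25, adjusted p = 0.0151) came with overlap, CLP replicate 2 being the highest library of all.

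The ADP-ribosylation genes, neighbours on chromosome 16, moved little. Parp9 (NM_030253), the partner of the ubiquitin ligase Dtx3l (NM_001013371), passed with a log2 fold change of 0.69 (SE 0.19, adjusted p = 0.036) and 6.94 to 12.02 against 11.2 to 17.0 RPKM. Its call was lost under 10 of 18 alternatives. Dtx3l and Parp14 (NM_001039530) did not pass, at 5.55 to 11.1 and 1.65 to 4.64 RPKM over all libraries. Xaf1 (NM_001037713), a factor linked to cell death, rose from 7.88 to 8.94 to 13 to 20.6 RPKM (log2 fold change 1.11, SE 0.20, adjusted p = 0.00769). Ifi35 (NM_027320) rose slightly, from 51.5 to 63.7 to 67.5 to 83.3 RPKM (log2 fold change 0.65, SE 0.13, adjusted p = 0.0103), and Ifi44 (NM_133871) did not pass, at 1.17 to 8.32 against 2.05 to 4.87 RPKM.

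**Figure D4:**
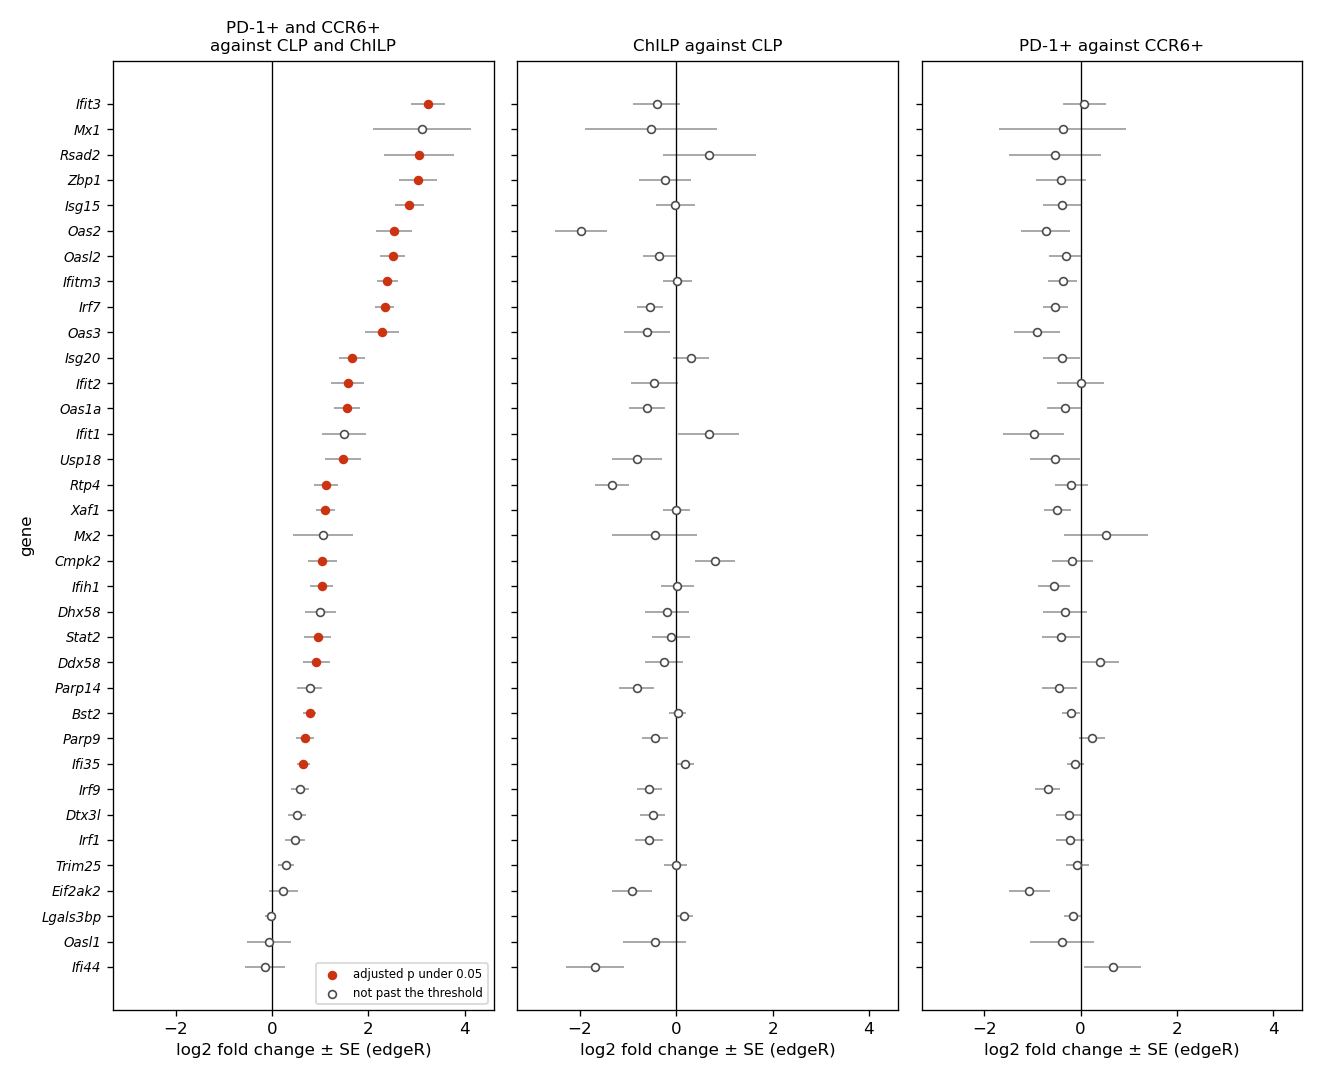
Log2 fold changes with standard errors from edgeR for the 35 genes in 3 comparisons (panels); filled points have an adjusted p under 0.05 over all genes. In the left panel 22 points are filled and all lie right of 0; in the other panels none is filled, and most points lie left of 0.

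Between CLP and ChILP no member passed with edgeR (0 of 35, beside 0.022% of all genes, 0.00734% higher and 0.0147% lower). The median log2 fold change was -0.41, beside 0.05 for all genes, and it was -0.06 without ChILP replicate 2. At an unadjusted p under 0.05, 3 members were lower and none was higher, beside 3.03% and 2.79% of all genes. In 14 members both ChILP libraries were below both CLP libraries and in none above, beside 18.6% and 17% of all genes. DESeq2 called 2 members lower, beside 1.09% of all genes lower and 0.844% higher: Oas2 (log2 fold change -2.01, SE 0.60, adjusted p = 0.0405) and Rtp4 (-1.36, SE 0.40, adjusted p = 0.0385), and limma on log2(RPKM + 1) called none; these genes were chosen after their values were seen.

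The members with the most negative log2 fold changes were Oas2, Ifi44 and Rtp4. Oas2 had 2.44 and 4.23 RPKM in CLP libraries against 0.907 and 0.704 in ChILP libraries (edgeR log2 fold change -1.98, SE 0.54, adjusted p = 0.391). Ifi44, an interferon-induced protein, stood at 8.32 and 6.77 against 1.17 and 3.36 RPKM (log2 fold change -1.69, SE 0.60, adjusted p = 0.692). In neither gene did the groups overlap, but with 2 libraries each the differences did not pass over all genes with edgeR. Rtp4 had a log2 fold change of -1.33 (SE 0.35, adjusted p = 0.358) and Eif2ak2, at 5.36 and 6.43 against 4.06 and 1.90 RPKM, one of -0.92 (SE 0.42, adjusted p = 0.89). Irf7 and Irf9 were also lower without overlap, with log2 fold changes of -0.54 (SE 0.27) and -0.56 (SE 0.26), and so were Oas1a and Oas3 with -0.61 each (SE 0.37 and 0.48). For Irf1 (-0.56, SE 0.29) and Usp18 (-0.82, SE 0.52) the groups overlapped. Bst2 differed by 0.03 (SE 0.18), Ifitm3 by 0.02 (SE 0.30), Isg15 by -0.02 (SE 0.40) and Stat2 by -0.11 (SE 0.39) on the log2 scale, and the sign of each of these 4 depended on the setting or the libraries used. All 3 genes of the ADP-ribosylation group had both ChILP libraries below both CLP libraries, as had 4 of the 5 oligoadenylate synthetase genes, and none of these passed with edgeR.

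Between PD-1+ and CCR6+ progenitors edgeR called no member and no gene at all (0% of all genes), with 801 genes (5.88%) at an unadjusted p under 0.05. Of the members 2 were lower in PD-1+ cells and none higher at that level, beside 1.81% and 4.08% of all genes; DESeq2 and limma called no member. The median log2 fold change was -0.37, beside 0.01 for all genes, and 30 of 35 members had a negative sign. Both PD-1+ libraries were below both CCR6+ libraries in 11 members and above in 1, Ifi44, beside 14.2% and 19% of all genes.

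The genes at an unadjusted p under 0.05 were Eif2ak2, at 3.29 and 2.46 RPKM in PD-1+ against 5.82 and 5.63 in CCR6+ cells (log2 fold change -1.06, SE 0.42, adjusted p = 0.824), and Irf9, at 23.6 and 36.0 against 47.0 and 45.3 (log2 fold change -0.68, SE 0.26, adjusted p = 0.815). Ifit1 and Oas3 also did not overlap, with log2 fold changes of -0.97 (SE 0.63) and -0.90 (SE 0.48), and neither passed. Irf7 (-0.52, SE 0.26), Usp18 (-0.53, SE 0.51), Isg15 (-0.39, SE 0.39) and Ifih1 (-0.55, SE 0.34) were likewise lower in both PD-1+ libraries. For Irf1 (-0.21, SE 0.29), Stat2 (-0.41, SE 0.39), Bst2 (-0.20, SE 0.18) and Ifitm3 (-0.37, SE 0.30) the groups overlapped. The median depended on PD-1+ replicate 1: it was -0.12 without that library and -0.53 without PD-1+ replicate 2, with 9 members lower at an unadjusted p under 0.05, beside 7.94% of all genes lower in that setting. All 12 neutrophil, 10 monocyte and macrophage and 7 erythroid markers had a negative sign in this comparison too, with medians of -0.16, -0.38 and -0.45, and none passed. Their part in the members' values was not tested.

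Interferon genes other than Ifng were nearly absent at the RNA level. Of 18 interferon genes other than Ifng in the tables, 16 had no read in any of the 8 libraries, which allows 0.0318 to 0.0457 RPKM over the 8 libraries together (3 counts, counting error only). Ifnb1 and all 11 numbered interferon alpha genes were among them. Ifng (NM_008337), interferon gamma, had 1 and 0 reads in CLP, 22 and 0 in ChILP, 76 and 19 in PD-1+ libraries, then 5 and 61 in CCR6+ libraries. Its highest levels were 4.33 RPKM in PD-1+ replicate 1 and 3.47 in CCR6+ replicate 2. It was higher on average in captured libraries but did not pass (edgeR log2 fold change 4.17, SE 1.73, adjusted p = 0.127). ChILP replicate 1 lay above PD-1+ replicate 2 and CCR6+ replicate 1. Both receptor chains were present throughout: Ifnar1 stood at 6.60 to 15.1 RPKM in depleted and 10.8 to 16.9 in captured libraries, and Ifnar2 at 24.5 to 40.8 and 23.9 to 49.6. Of the 7 ligand and receptor genes tested 3 rose in captured libraries, beside 11.4% of all genes. They were Ifnar1 (log2 fold change 0.64, SE 0.16, adjusted p = 0.0271), Ifngr1 (0.56, SE 0.15) and Ifngr2 (1.48, SE 0.25). None of the 7 passed with edgeR in either other comparison.

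Of 23 genes of receptor signalling and nucleic acid sensing, 12 rose in captured libraries and none fell (edgeR), beside 11.4% and 10.5% of all genes. Irf5, a factor of myeloid and B cells, rose from 12.2 to 22.3 to 66.8 to 158 RPKM (log2 fold change 3.03, SE 0.35, adjusted p = 0.00193). Tyk2 rose by 0.90 (SE 0.18, adjusted p = 0.0119) on the log2 scale, whereas Jak1 did not pass (0.36, SE 0.12, adjusted p = 0.0684). Of the sensing adaptors, Myd88 rose without overlap (1.05, SE 0.14, adjusted p = 0.00292), while Mavs, Tmem173 and Ticam1 did not pass. Socs1, a feedback inhibitor of JAK kinases, was highest in PD-1+ replicate 1 at 145 RPKM and did not pass in any of the 3 comparisons. Of 57 other interferon-stimulated genes tested, 27 rose and 3 fell in captured libraries, beside 11.4% and 10.5% of all genes, with a median log2 fold change of 0.81. Ifi27l2a rose from 23.8 to 116 RPKM to 536 to 816 (log2 fold change 3.83, SE 0.35, adjusted p = 0.00138), and Slfn2, a regulator of lymphocyte and myeloid quiescence, from 21.0 to 44.8 to 121 to 263 (log2 fold change 3.04, SE 0.30, adjusted p = 0.00141). The genes that fell were Lgals9, Pnpt1 and Isg20l2. Of the immunoproteasome subunits, Psmb10 rose (log2 fold change 0.43, SE 0.12, adjusted p = 0.0394), while Psmb8 and Psmb9 did not pass. None of the 57 genes passed with edgeR in ChILP against CLP or in PD-1+ against CCR6+ cells, beside 0.022% and 0% of all genes. In 25 of them both ChILP libraries were below both CLP libraries and in 5 above, beside 18.6% and 17% of all genes. Among those above was Ccl5, at 16.7 and 7.08 RPKM in CLP against 205 and 289 in ChILP libraries (log2 fold change 4.42, SE 0.52, adjusted p = 0.0593).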

How the data were processed

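Per the labels' protocols, cells were sorted into lysis reagent and libraries were made with Smart-seq2 and read at 50 bp. Tools listed in the submitters' processing notes are Bowtie2 2.2.2 and CASAVA 1.8.4, with mm9 as genome build; the sources used here do not give the counter, strand setting or annotation release, so overlapping and near-identical genes are uncertain. The authors deposited a whole-number read count, a length and an RPKM value for each of 29257 RefSeq transcripts per library. The transcript with the largest mean count stood for its gene. The test was edgeR 4.0.16 under R 4.3.3: TMM scaling, filterByExpr (count of at least 10), and a two-sided quasi-likelihood test with robust dispersion (Benjamini-Hochberg adjustment over 13619 genes) with all 4 groups in 1 fit; a call is an adjusted p under 0.05. Levels are deposited RPKM. The third comparison sets the mean of PD-1+ and CCR6+ against that of CLP and ChILP. The fits were tested on simulated data. Alternatives used DESeq2 1.42.0, limma 3.58.1, other scalings, filters and transcripts, and fewer libraries. Members, lists and alternatives were chosen with earlier results of these data known. Fold changes are given for every called member, for up to 6 members per direction and comparison that changed most among those without overlap whose higher group averaged 5 RPKM or more, and for 8 members fixed by name (Stat2, Irf9, Irf7, Irf1, Usp18, Isg15, Bst2 and Ifitm3); others are given for completeness. The values of 1 gene of the signalling list are not reported here.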

Additional observations from a re-analysis of the deposited data

How the results depend on the processing

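In PD-1+ and CCR6+ cells against CLP and ChILP, 10 of the 22 called members were called under all 18 alternatives (Ifit3, Isg15, Isg20, Irf7, Oas1a, Oas2, Oas3, Oasl2, Zbp1 and Ifitm3) and 12 were lost under at least 1; among these Ifit2 was lost under 5, Ifi35 under 3 and Rtp4, Bst2 and Xaf1 under 1 each. Leaving out 1 library in turn gave 14 to 22 called members, medians of 0.96 to 1.36 and 1678 to 3038 calls over all genes (2990 with all libraries, 1921 without ChILP replicate 2). With replicate 2 of PD-1+ and of CCR6+ both left out 14 members were called, and 1 was lower at an unadjusted p under 0.05, as also without PD-1+ replicate 2 (0 to 1 over libraries). With both number 1 libraries of CLP and ChILP left out the median was 1.40 with 1481 calls over all genes, and with log2(RPKM + 1) it was 0.75. The cause of these shifts was not tested. In ChILP against CLP, the 3 calls over all genes became 0 with DESeq2 size factors, 263 with the DESeq2 Wald test (2 of them members), 55 and 46 with limma at pseudocounts of 1 and 0.1, 63 without a filter, 15 with at least 5 RPKM, 59 with only the 4 libraries compared, 0 with the replicate block and 0 to 24 leaving out a library. The 3 members lower at an unadjusted p under 0.05 (beside 3.03% of all genes) became 6 and 5 with limma (beside 4.26% and 3.7%) and 6 with only the 4 libraries (beside 4.79%). Leaving out a library, the median ran from -0.63 to -0.06. Near-zero changes turned sign: Ifitm3 to -0.01 with DESeq2 size factors and the Wald test, -0.06 with limma at both pseudocounts, -0.02 with 4 libraries, -0.26 without both number 1 libraries and -0.25 to 0.25 leaving out a library; Bst2 to -0.02 with limma and 0.00 with 4 libraries; and, leaving out a library, Bst2 from -0.03 to 0.10, Isg15 from -0.65 to 0.46 and Stat2 from -0.24 to 0.01. In PD-1+ against CCR6+, the 0 calls became 128 with the DESeq2 Wald test, 2 with log2(RPKM + 1), 5 with replicate 2 of both groups left out and 0 to 36 leaving out a library. The 2 members lower at an unadjusted p under 0.05 became 1 with limma at either pseudocount, 6 (with 1 higher) without both number 2 libraries and 0 to 9 leaving out a library; Stat2 ran from -1.18 to 0.06 and Irf1 from -0.44 to 0.05. Differences between replicates 1 and 2 correlated little between groups over all genes (-0.106 to 0.094, highest for CLP with ChILP). Sums of neutrophil and of monocyte and macrophage markers, however, were higher in replicate 1 of both depleted groups and in replicate 2 of both captured groups. Erythroid sums were higher in replicate 1 of both depleted groups and of CCR6+ cells. Whether the numbers pair the samples cannot be told from these values. With the replicate block 20 members were called in the captured comparison, beside 9.95% of all genes higher and 8.74% lower. It called 0 in both others, beside 0% of all genes. Where 1 library remained in a group, its variation was taken to equal that of the others.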
